A study of Arabidopsis thaliana with 9 samples.

Results

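Leaves of Arabidopsis thaliana brought to salt in daily steps (Phase 1) were set against leaves taken soon after a sudden salt shock (Phase 0). The comparison takes in the 3 Phase 1 and 3 Phase 0 libraries, 6 of 9 in all, and every gene with a mean normalised count of at least 10 over the 9 libraries, which is 18650 of 21176 genes. All plants were of the Col-0 accession, 5 weeks old and kept in nutrient solution. In Phase 1 the NaCl was raised by 15 mM a day to 90 mM and rosette leaves were taken 2 days after that level was reached. In Phase 0 they were taken 1 h after 105 mM NaCl was given at once, and the control plants had no added salt. Dose, hours under salt and mode of delivery all differ between the phases and cannot be told apart here. Nor do the labels give the hour of harvest, so the hour of the day and the salt regime cannot be told apart either.

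Salt lowers the water potential around the root within minutes, and sodium builds up in the shoot over days. The early phase is known for abscisic acid (ABA) signalling, which closes stomata and switches on genes of dehydration tolerance. The slower phase is known for changes in ion transport, compatible solutes, pigments and growth. Many of the same genes are also under the circadian clock, a loop in which morning MYB-like factors hold down evening genes and evening factors hold down the morning ones.

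Totals of normalised counts ran from 22786946 to 27820610 per library, and in the 7 libraries where the spacing of low values could be read, 3 reads were worth between 2.75 and 3.97 of them. It could not be read in Phase 1 replicate 3 or Phase 0 replicate 3. Genes of chloroplast and mitochondrial DNA took 0.605% of the total in Phase 0 replicate 2, against 0.041% to 0.057% elsewhere. Summed markers of mesophyll, the photosynthetic tissue of the leaf, were 1045538 to 1226952 in Phase 1 and 1225593 to 1332642 in Phase 0, and 0 of 4 were called. Of 8 root markers 6 were not analysed here and 1, SCR, was tested, a factor that is also at work in leaf veins. It had 1555, 1538 and 1212 in Phase 1, against 568, 680 and 651 in Phase 0. Summed guard cell markers were 43227 to 89399 in Phase 1 and 99418 to 102166 in Phase 0, with 0 of 4 called. Of 4 vascular markers, summed at 3741 to 4374 in Phase 1 and 4526 to 4821 in Phase 0, SHR, a partner of SCR, rose by 0.77 and SUC2, the sucrose loader of the phloem, fell by 0.53. The SUC2 call was lost without Phase 1 replicate 1 or Phase 0 replicate 2 or 3, and a further vascular marker rose without Phase 0 replicate 1 or control replicate 1. None of 5 epidermal markers was called, with sums of 4598 to 6193 in Phase 1 and 5397 to 6413 in Phase 0, except that 1 was lower without control replicate 1. The part of cell makeup in the results was not tested. In whole leaves, fewer cells of a type and less RNA per cell cannot be told apart. The labels do not say whether replicates are separate plants, so p-values measure only the spread between these samples.

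Between the phases, 5249 of 18650 genes (28.1%) passed an adjusted p of 0.05 with limma, with 2556 higher in Phase 1 (13.7%) and 2693 lower (14.4%). Counts of members in each gene list below are to be read against these shares. Differences are given on the log2(normalised count + 1) scale as Phase 1 minus Phase 0, which understates changes of weakly expressed genes, and their median over all tested genes was -0.0083. A difference of at least 1 was reached by 1103 genes higher (5.91%) and 1233 lower (6.61%) in Phase 1, together 12.5%, at least 3 by 77 and 130, and at least 5 by 13 and 21. All 3 Phase 1 values lay above all 3 Phase 0 values in 24.9% of genes and below them in 25.3%. Lack of overlap in any gene named below is to be read against these shares. Such genes were mostly chosen for a call, for a large difference or after their values were seen. Their separation is therefore a description and not a result of its own. The count of 5249 fell to 3378 without Phase 0 replicate 2. For comparison, 6724 genes (36.1%) passed between Phase 1 and control and 547 (2.93%) between Phase 0 and control. Those 2 comparisons share the control libraries, and each shares its salt libraries with the comparison described here.

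Values per gene below are normalised counts of replicates 1, 2 and 3 in that order. The first genes named had a symbol, a call, a mean of 100 or more in the higher phase and no overlap between the phases. Among such genes the largest rise was that of LHY, a morning factor of the clock. The largest fall was that of FKF1, an evening blue-light receptor. Next to LHY stood ELIP2, an early light-induced protein that binds pigment in the thylakoid under strong light. It had 2012, 2554 and 1458 in Phase 1 and 23, 31 and 23 in Phase 0, a difference of 6.21 (SE 0.26, adjusted p = 2.35e-07). SAG29, also known as the sugar carrier SWEET15, had 752, 386 and 477 in Phase 1 and 5, 4 and 19 in Phase 0 (difference 5.94). CSLA01, of the cellulose synthase-like A family, had 17626, 6515 and 4073 in Phase 1 and 73, 139 and 240 in Phase 0 (difference 5.84). Lack of overlap was a condition for naming these 3 genes and is not a result. ASPGB1, an asparaginase, had 329, 524 and 479 in Phase 1 and 16, 6 and 17 in Phase 0 (difference 5.08). LTP4, a lipid transfer protein, had 223, 250 and 89 in Phase 1, against 2, 6 and 1 in Phase 0, and ABCF2 had 238, 170 and 120, against 2, 4 and 3. As both lay near the level of 3 reads in Phase 0, no fold is given for them. BSMT1, a methyltransferase that makes methyl salicylate, had 270, 35 and 19 in Phase 1 and 0, 0 and 8 in Phase 0, and it missed the threshold without Phase 1 replicate 1.

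Among the falls, MEE14 had 60, 41 and 70 in Phase 1 and 5540, 5040 and 3762 in Phase 0 (difference -6.38, SE 0.23, adjusted p = 9.51e-08). WCRKC1, a thioredoxin, had 24, 40 and 66 in Phase 1 and 1880, 1877 and 1797 in Phase 0 (difference -5.50). ACA8, a calcium pump of the plasma membrane, had 113, 159 and 122 in Phase 1 and 3077, 2940 and 3291 in Phase 0 (difference -4.57). These 3 genes too were chosen for not overlapping between the phases. ACA8 also had 845, 1077 and 784 in control, below every Phase 0 library and above every Phase 1 library. RbcX1, an assembly chaperone of Rubisco, fell by 4.3, LCR69, a small cysteine-rich protein, by 4.6, and PLA2A, a phospholipase, by 4.3. COL9, a CONSTANS-like factor, had 5, 10 and 17 in Phase 1 and 382, 301 and 321 in Phase 0 (difference -4.98). TPS03, a terpene synthase, had 497, 44 and 27 in Phase 1 and 2061, 1596 and 1861 in Phase 0.

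Some abundant transcripts of the leaf also differed. Except for CAT1, those named here were chosen among called genes without overlap and with a difference of at least 1. They do not show how many abundant transcripts changed. VTC2, which commits GDP-sugars to vitamin C, had 93738, 87657 and 61756 in Phase 1 and 9393, 9359 and 10950 in Phase 0 (difference 3.01, SE 0.19, adjusted p = 3.16e-06). The catalases, which break down hydrogen peroxide, moved in opposite directions. CAT2 had 79042, 58698 and 72161 in Phase 1 and 14505, 14672 and 18593 in Phase 0, a rise of 2.13. CAT3 had 25487, 11871 and 27124 in Phase 1 and 101147, 129572 and 97181 in Phase 0, a difference of -2.43. The third, CAT1, had 514, 356 and 656 in Phase 1 and 1646, 1696 and 1727 in Phase 0, a difference of -1.77. CAT2 and CAT3 were chosen for not overlapping between the phases, and CAT1 did not overlap either. SAMDC, of polyamine synthesis, rose by 1.37, NIT1, a nitrilase, by 1.07, and GLDP2, of the photorespiratory glycine decarboxylase, by 1.46. ARGAH2, an arginase, had 58960, 13217 and 12291 in Phase 1 and 3975, 6712 and 4840 in Phase 0 (difference 2.07), so that most of its Phase 1 mean came from replicate 1. THI1, of thiamine synthesis, had 84099, 63221 and 79469 in Phase 1 and 140122, 157084 and 163055 in Phase 0 (difference -1.03).

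**Figure D1:**
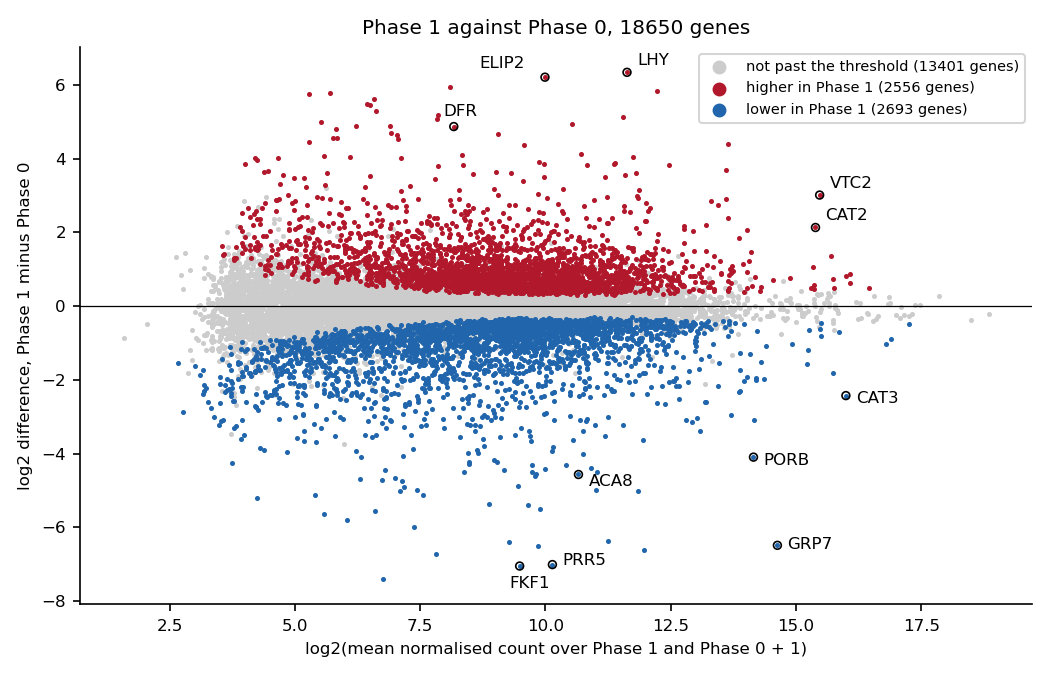
Each point is 1 of 18650 genes, with log2 of the mean normalised count over the Phase 1 and Phase 0 libraries plus 1 on the x axis and the log2 difference, Phase 1 minus Phase 0, on the y axis. Genes past the threshold are red where higher in Phase 1 (2556) and blue where lower (2693). The labelled genes, such as VTC2, CAT2, CAT3, PORB and GRP7, include some abundant transcripts with large differences.

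The clock genes parted by phase of day. Of 14 tested morning and day genes, 10 rose, 2 fell and 2 did not pass, with a median difference of 1.60. Of 11 evening genes 8 fell, 1 rose and 2 did not pass, with a median of -3.08. Against control the medians were 1.34 and -2.04 in Phase 1, and -0.12 and 0.65 in Phase 0. These values share the control libraries.

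LHY, whose protein binds evening promoters at dawn, had 7626, 6097 and 5034 in Phase 1, 56, 117 and 64 in Phase 0 and 100, 95 and 96 in control. Its difference between the phases was 6.34 (SE 0.25, adjusted p = 1.87e-07). CCA1, its close relative, had 11430, 11906 and 8512 in Phase 1, 748, 708 and 756 in Phase 0 and 604, 714 and 945 in control, a rise of 3.83. For both, each Phase 1 library stood far above the other 6, while Phase 0 and control overlapped. LHY was chosen for not overlapping between the phases. RVE8, a related factor that activates afternoon genes, had 4199, 3296 and 2758 in Phase 1 and 245, 232 and 233 in Phase 0 (difference 3.83, SE 0.21). LNK3 (AT3G12320, without a symbol in the annotation) had 3731, 3504 and 3320 in Phase 1 and 494, 437 and 492 in Phase 0 (difference 2.89). The members of this group that fell were EPR1, with 111, 108 and 177 in Phase 1 and 268, 337 and 324 in Phase 0, and PRR7, a daytime repressor, with 6582, 7751 and 6332 in Phase 1 and 12772, 10225 and 11461 in Phase 0. The PRR7 call was lost whichever of the 6 Phase 1 and Phase 0 libraries was left out.

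Among the evening genes, FKF1, which targets repressors of flowering for breakdown, had 10, 15 and 6 in Phase 1, 1453, 1302 and 1511 in Phase 0 and 336, 390 and 361 in control (difference between the phases -7.05, SE 0.25, adjusted p = 9.51e-08). PRR5, an evening repressor of CCA1 and LHY, had 24, 15 and 12 in Phase 1, 2362, 2035 and 2315 in Phase 0 and 1219, 1472 and 1646 in control (difference -7.01, SE 0.22, adjusted p = 6.37e-08). PRR3, of the same family, had 16, 22 and 7 in Phase 1, 1358, 1059 and 1269 in Phase 0 and 469, 348 and 400 in control. For all 3 the order was Phase 1 lowest, control between and Phase 0 highest, with no overlap between any of the groups. Lack of overlap between the phases was a condition for naming them, and only the place of control is a result. In the evening complex, which represses growth and clock genes at night, ELF4 had 11, 5 and 6 in Phase 1 and 276, 192 and 326 in Phase 0, and ELF3 had 104, 189 and 116 in Phase 1 and 1509, 1161 and 1296 in Phase 0. Its DNA-binding partner LUX (PCL1 in the annotation) had 506, 349 and 264 in Phase 1 and 380, 298 and 411 in Phase 0, which overlapped, with a difference of 0.00 and a 95% interval of -0.51 to 0.51. TOC1, a pseudo-response regulator that closes the loop onto CCA1 and LHY, had 266, 288 and 191 in Phase 1 and 2096, 2037 and 2072 in Phase 0 (difference -3.07). GI, which stabilises evening F-box proteins, had 915, 928 and 784 in Phase 1 and 4131, 4407 and 4361 in Phase 0 (difference -2.3). ZTL, the F-box protein that degrades TOC1, was the 1 evening member that rose, with 1542, 1434 and 1381 in Phase 1 and 913, 1139 and 1120 in Phase 0, and this call was lost without Phase 1 replicate 1 or Phase 0 replicate 1.

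**Figure D2:**
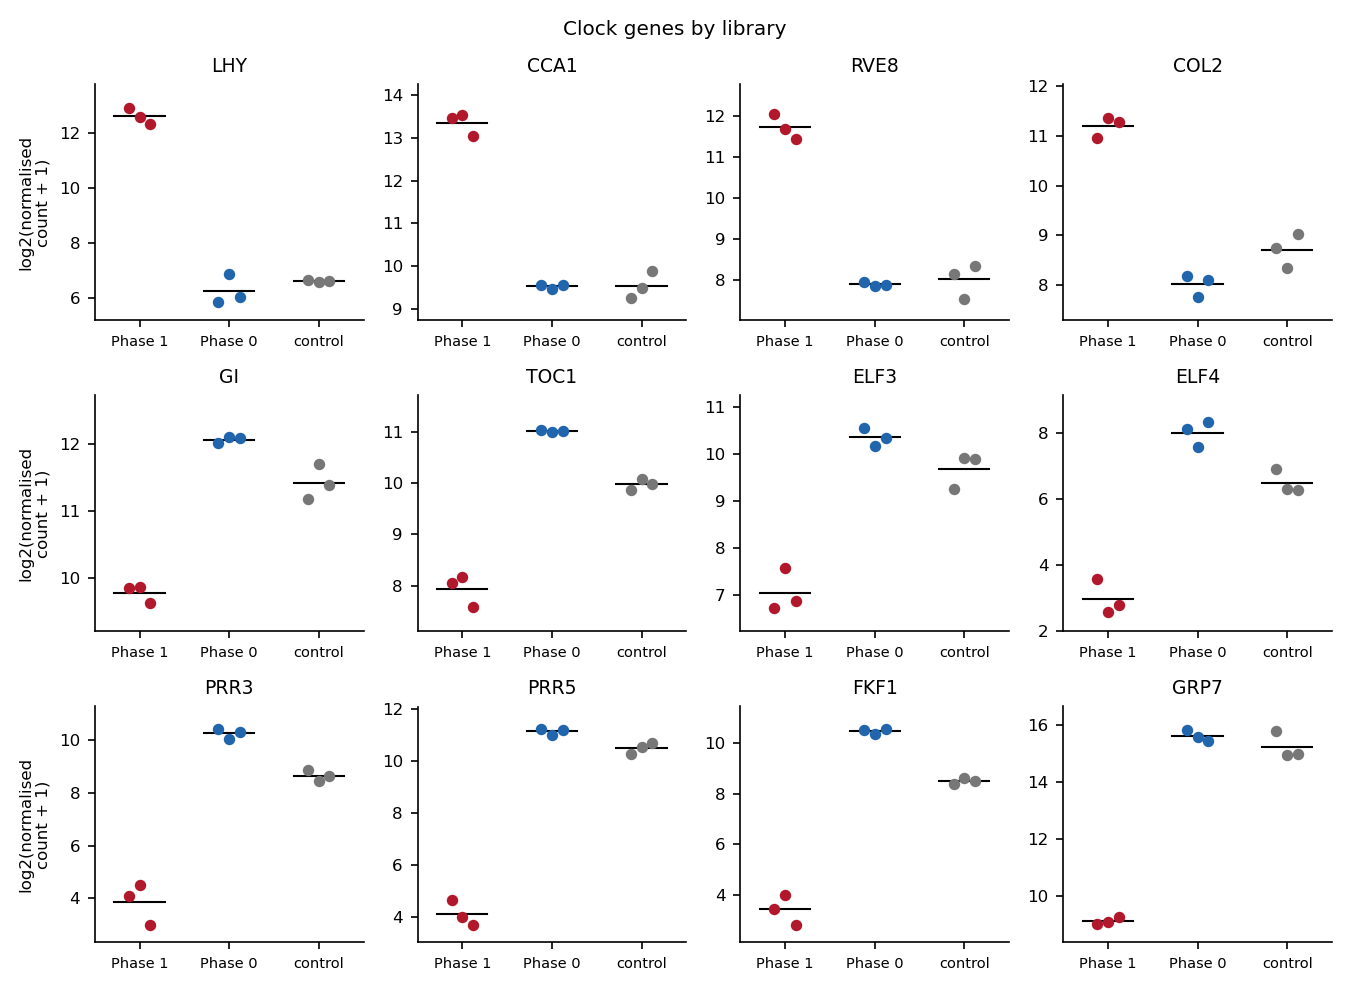
Each panel is 1 clock or clock-output gene, with log2(normalised count + 1) on its own y axis and points for the 3 Phase 1 (red), 3 Phase 0 (blue) and 3 control (grey) libraries, replicates 1 to 3 from left to right, with a line at the group mean. LHY, CCA1, RVE8 and COL2 sit highest in Phase 1, and in the other 8 panels each Phase 1 point lies below every Phase 0 and control point.

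Genes read out by the clock split evenly, with 5 of 11 higher, 5 lower and 1 not past the threshold. GRP7, an RNA-binding protein in a clock-driven loop of its own, had 516, 540 and 613 in Phase 1, 57299, 48584 and 44561 in Phase 0 and 56100, 31673 and 32319 in control (difference between the phases -6.49, SE 0.21, adjusted p = 6.37e-08). COR27, a cold- and light-regulated repressor of evening genes, had 10, 5 and 11 in Phase 1, 273, 246 and 316 in Phase 0 and 30, 25 and 31 in control. COR28 (AT4G33980, without a symbol in the annotation) had 1, 0 and 0 in Phase 1, at or under the level of 3 reads, against 258, 167 and 218 in Phase 0 and 74, 30 and 36 in control, so no fold is given. In all 3 genes Phase 1 lay below every other library, though GRP7 and COR27 were chosen for not overlapping between the phases. COL2, a CONSTANS-like zinc finger factor, went the other way, with 1996, 2622 and 2475 in Phase 1 and 287, 216 and 271 in Phase 0 (difference 3.19).

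The evening element, AAAATATCT, is the sequence to which CCA1 and LHY are known to bind in evening promoters. It was sought on both strands in the 300 bases from 250 before to 50 after the annotated start of each gene, in RefSeq's TAIR10.1 genome. It was found in 571 of 18558 promoters of tested genes (3.08%), in 162 of the 1233 genes that were lower in Phase 1 by at least 1 (13.14%) and in 15 of the 1103 that were higher by at least 1 (1.36%). Among genes lower by at least 2 the share was 20.21%. Of the 571 genes that held it, 41.3% were called lower and 7.5% higher, against 14.4% and 13.7% of all tested genes, with a median difference of -0.39. The related CCA1-binding site AAAAATCT, which neither holds the evening element nor lies within it, stood in 8.22% of all promoters, 11.27% of those lower by at least 1 and 7.80% of those higher by at least 1. In the evening group 4 of 11 promoters held the evening element (FKF1, PRR5, TOC1 and PCL1) and in the output group 6 of 11, among them COL2, which rose, so a match did not fix the direction. The promoters of 4 of the clock and output genes that fell are shown. Among members that carry the element, these genes were chosen for the largest differences in their groups. Other carriers that fell, such as TOC1, COR27 and CAT3, are not shown. The 4 promoters carry the element between 1 and 3 times each, in capitals either as AAAATATCT or, where it lies on the other strand, as AGATATTTT. They are FKF1 (chr1:25508389-25508688, plus strand), PRR5 (chr5:8358497-8358796, minus strand), AT4G33980 (chr4:16285180-16285479, minus strand) and GRP7 (chr2:9266508-9266807, minus strand), each written 5′ to 3′ on the gene's strand.
FKF1: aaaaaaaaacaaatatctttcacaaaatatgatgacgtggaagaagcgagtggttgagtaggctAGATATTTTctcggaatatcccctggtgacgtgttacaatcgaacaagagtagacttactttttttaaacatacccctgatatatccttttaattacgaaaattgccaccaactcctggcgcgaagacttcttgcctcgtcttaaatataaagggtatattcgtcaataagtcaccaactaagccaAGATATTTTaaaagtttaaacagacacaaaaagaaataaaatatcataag
PRR5: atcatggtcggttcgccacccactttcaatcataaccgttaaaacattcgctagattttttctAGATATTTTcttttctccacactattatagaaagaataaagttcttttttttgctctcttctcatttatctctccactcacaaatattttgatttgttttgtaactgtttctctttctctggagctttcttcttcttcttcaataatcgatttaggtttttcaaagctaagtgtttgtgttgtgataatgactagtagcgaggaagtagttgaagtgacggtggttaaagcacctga
AT4G33980: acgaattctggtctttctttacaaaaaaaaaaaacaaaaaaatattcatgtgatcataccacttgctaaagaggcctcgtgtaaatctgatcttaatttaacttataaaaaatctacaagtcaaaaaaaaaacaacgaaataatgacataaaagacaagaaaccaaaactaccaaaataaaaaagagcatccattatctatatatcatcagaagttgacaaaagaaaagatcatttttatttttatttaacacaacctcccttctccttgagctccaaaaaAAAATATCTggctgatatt
GRP7: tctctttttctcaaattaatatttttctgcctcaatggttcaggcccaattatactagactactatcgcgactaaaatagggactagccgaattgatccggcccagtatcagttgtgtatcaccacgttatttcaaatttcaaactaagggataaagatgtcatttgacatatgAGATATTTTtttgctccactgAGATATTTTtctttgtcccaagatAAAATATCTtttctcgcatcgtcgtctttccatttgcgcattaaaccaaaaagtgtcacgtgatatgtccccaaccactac

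Counted from the start site, the matches began at -186 and 1 in FKF1, at -187 in PRR5, at 32 in AT4G33980 and at -76, -55 and -31 in GRP7. The G-box CACGTG is bound by bZIP and bHLH factors of light and ABA signalling and is equal to its own reverse complement. It was more frequent among genes that were higher. It stood in 8.96% of all promoters, in 14.96% of genes higher by at least 1 and in 21.24% of those higher by at least 2, against 9.49% of those lower by at least 1 and 11.92% of those lower by at least 2. In the morning and day group 10 of 14 promoters held it. These matches are a description of letters and not of binding.

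Light-response factors leaned upwards, with 10 of 17 tested members higher, 3 lower and 4 not past the threshold, and a median difference of 0.67. HYH, a bZIP factor that acts in light responses together with HY5, had 1226, 1174 and 978 in Phase 1 and 228, 214 and 301 in Phase 0 (difference 2.19, SE 0.24). HY5 itself had 383, 528 and 348 in Phase 1 and 102, 92 and 151 in Phase 0 (difference 1.87). BBX19, a B-box factor of flowering and seedling growth, had 940, 1084 and 825 in Phase 1 and 134, 106 and 111 in Phase 0 (difference 3.01). None of these 3 overlapped between the phases. BBX31 rose by 2.3 and BBX25 (STH in the annotation) by 2.27, while BBX22 (LZF1), a B-box factor that promotes anthocyanin in light, had 349, 484 and 301 in Phase 1 and 1741, 1562 and 1626 in Phase 0 (difference -2.14).

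Transcripts of cold- and drought-response factors of the CBF and DREB families were lower in Phase 1, with 7 of 9 tested members lower, 0 higher and 2 not past the threshold. The median difference was -3.26, and 7 members were lower whichever library was left out. CBF3 (DREB1A in the annotation), which binds the dehydration-responsive element, had 34, 29 and 41 in Phase 1, 753, 512 and 756 in Phase 0 and 266, 275 and 269 in control (difference between the phases -4.23, SE 0.19, adjusted p = 4.22e-07). CBF1 had 1, 2 and 5 in Phase 1, near the level of 3 reads, against 74, 36 and 48 in Phase 0. The near-identical CBF genes may share reads, so their split is uncertain. DREB2A, the drought and heat member, had 32, 45 and 25 in Phase 1 and 264, 392 and 332 in Phase 0 (difference -3.26). DREB2C had 8, 6 and 1 in Phase 1 and 56, 55 and 66 in Phase 0, and DREB2B had 1, 3 and 1, against 24, 43 and 47. In each of these genes all 3 Phase 1 libraries lay below all Phase 0 libraries. RAP2.4 did not pass, with 3118, 4417 and 3025 in Phase 1 and 4008, 3559 and 3544 in Phase 0, and a difference of -0.09 (95% interval -0.48 to 0.30).

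Of 17 ABA and dehydration markers, 8 fell, 2 rose and 7 did not pass, with a median difference of -0.57. Against control the median was -0.06 in Phase 1 and 1.19 in Phase 0, values that share the control libraries. RD29A (LTI78), the standard reporter of dehydration signalling, had 4478, 4848 and 2586 in Phase 1, 30603, 34821 and 32164 in Phase 0 and 8023, 12369 and 6356 in control (difference between the phases -3.08, SE 0.27, adjusted p = 2.53e-05). ERD7 had 516, 788 and 448 in Phase 1, 4215, 5792 and 6115 in Phase 0 and 2521, 2310 and 1389 in control (difference -3.22). The dehydrin LTI30, a hydrophilic protein that guards membranes, had 53, 310 and 49 in Phase 1 and 784, 1106 and 597 in Phase 0 (difference -3.09, SE 0.61). In RD29A and ERD7 each Phase 1 library was also below each control library, while LTI30 had Phase 1 replicate 2 within the control range of 236 to 542. The dehydrins COR47 and ERD10 fell by 2.52 and 1.72, and COR15B and KIN2, both cold-regulated, by 2.61 and 2.01. KIN2 and its neighbour KIN1 are near-identical, which makes their split uncertain, and KIN1 had 428, 2756 and 340 in Phase 1 and 578, 736 and 594 in Phase 0.

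The 2 markers that rose were RD20 and LEA4-5. RD20, a caleosin of lipid droplets induced by ABA, had 28749, 7515 and 11575 in Phase 1, 2488, 2695 and 3827 in Phase 0 and 860, 703 and 533 in control (difference between the phases 2.2, SE 0.40, adjusted p = 0.00264). Its Phase 1 libraries lay above all Phase 0 libraries and these above all control libraries. LEA4-5, a late embryogenesis protein, had 218, 176 and 45 in Phase 1 and 13, 14 and 19 in Phase 0, and its call was lost when any 1 of Phase 0 replicates 1 to 3 or Phase 1 replicate 1 or 2 was left out. RAB18, an ABA-responsive dehydrin, did not pass, with 881, 512 and 833 in Phase 1 and 358, 434 and 527 in Phase 0 (difference 0.73, 95% interval 0.12 to 1.34, adjusted p = 0.071), but did without control replicate 1 or Phase 1 replicate 2. Neither did COR15A, with 22572, 38686 and 18450 in Phase 1 and 30932, 28987 and 34478 in Phase 0 (difference -0.31, 95% interval -0.87 to 0.24), except when Phase 1 replicate 2 was left out.

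Of 7 clade A protein phosphatases, which hold ABA signalling in check, 1 rose, 1 fell and 5 did not pass between the 2 salt groups, a share called near the 28.1% of all genes. The median difference was 0.31, or 0.15 without Phase 1 replicate 1, with medians against control of 2.01 in Phase 1 and 1.6 in Phase 0. HAB1 had 4575, 3175 and 2635 in Phase 1, 1003, 1084 and 1167 in Phase 0 and 291, 354 and 424 in control, so that the groups stood in 3 separate steps (difference between the phases 1.64, SE 0.20, adjusted p = 0.000246). ABI1 had 3003, 2153 and 1778 in Phase 1 and 3811, 3280 and 3576 in Phase 0, a difference of -0.65 that was lost without Phase 0 replicate 1 or 3 or Phase 1 replicate 2 or 3. HAI1, also of this group, had 1656, 516 and 348 in Phase 1, 223, 218 and 238 in Phase 0 and 16, 4 and 20 in control. Its groups did not overlap, but its difference of 1.56 had an interval of 0.23 to 2.88 and an adjusted p of 0.0771, which passed the threshold without control replicate 2 or Phase 1 replicate 3. PP2CA had 4783, 2771 and 2973 in Phase 1 and 3840, 3383 and 3789 in Phase 0, which overlapped (difference -0.11, 95% interval -0.52 to 0.31). The single rise became 2 or 3 without control replicate 1, control replicate 2 or Phase 1 replicate 3, and the single fall 2 without Phase 1 replicate 1. Phase 1 replicate 1 was the highest Phase 1 library for all 7 phosphatases and for 11 of 13 ABA factors, as it was for 32.1% of all tested genes.

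Among ABA receptors, which bind the hormone and then block those phosphatases, 4 of 9 were higher, 2 lower and 3 not past the threshold, with a median difference of 0.83, which was 0.41 without Phase 0 replicate 2. PYL2 had 42, 64 and 72 in Phase 1, 19, 20 and 28 in Phase 0 and 66, 69 and 55 in control. PYR1 had 1284, 1266 and 1123 in Phase 1, 649, 532 and 553 in Phase 0 and 1450, 748 and 988 in control. For both, Phase 1 overlapped control and lay above Phase 0. Over the 9 receptors the median against control was -0.787 in Phase 1 and -1.235 in Phase 0, values that share the control libraries. In each phase 5 were lower than control and 0 higher. PYL4 rose by 1.08 between the phases, a call lost without Phase 0 replicate 2 or Phase 1 replicate 2. Its Phase 1 values of 284, 513 and 433 lay below the 1590, 826 and 1024 of control. PYL8 (RCAR3) had 513, 504 and 572 in Phase 1 and 1293, 1208 and 1045 in Phase 0 (difference -1.15). In ABA synthesis and breakdown 1 of 11 genes rose, 1 fell and 9 did not pass. NCED3, the regulated step of ABA synthesis, had 277, 109 and 190 in Phase 1, 447, 400 and 454 in Phase 0 and 106, 159 and 115 in control (difference between the phases -1.27, SE 0.29). Its call was lost under at least 1 of the 22 alternative settings. ABA1, the upstream zeaxanthin epoxidase, had 18765, 14359 and 17374 in Phase 1 and 8428, 10271 and 9193 in Phase 0 (difference 0.85). The number of rises in this group was 2 to 4 when control replicate 1, control replicate 2 or Phase 1 replicate 2 was left out.

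The bZIP factors that act on ABA-responsive promoters did not share a direction. ABF1 had 196, 220 and 185 in Phase 1 and 1647, 1255 and 1186 in Phase 0 (difference -2.75, SE 0.15, adjusted p = 1.7e-06), and ABI5 had 17, 18 and 11 in Phase 1 and 78, 63 and 68 in Phase 0 (difference -2.14). ABF3 had 7298, 5945 and 4204 in Phase 1 and 2590, 1909 and 2201 in Phase 0, a rise of 1.36. The 3 did not overlap between the phases. Over the group of 13 ABA factors 4 rose, 3 fell and 6 did not pass. The median was 0.31, with -0.10 without Phase 1 replicate 1 and 0.59 without Phase 1 replicate 3. Of 27 rapid stress regulators, genes induced within minutes of many stimuli, 1 rose, 4 fell and 22 did not pass. That is 18.5% called, under the 28.1% of all genes. WRKY53, a senescence and defence factor, had 103, 142 and 65 in Phase 1 and 406, 853 and 495 in Phase 0 (difference -2.49), and ERF6, an ethylene-response factor, had 20, 31 and 17 in Phase 1 and 73, 81 and 115 in Phase 0. The ERF6 call was lost under at least 1 of the 22 alternative settings. The 1 rise was lost without any 1 of the Phase 0 libraries, Phase 1 replicate 2 or control replicate 2 or 3.

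**Figure D3:**
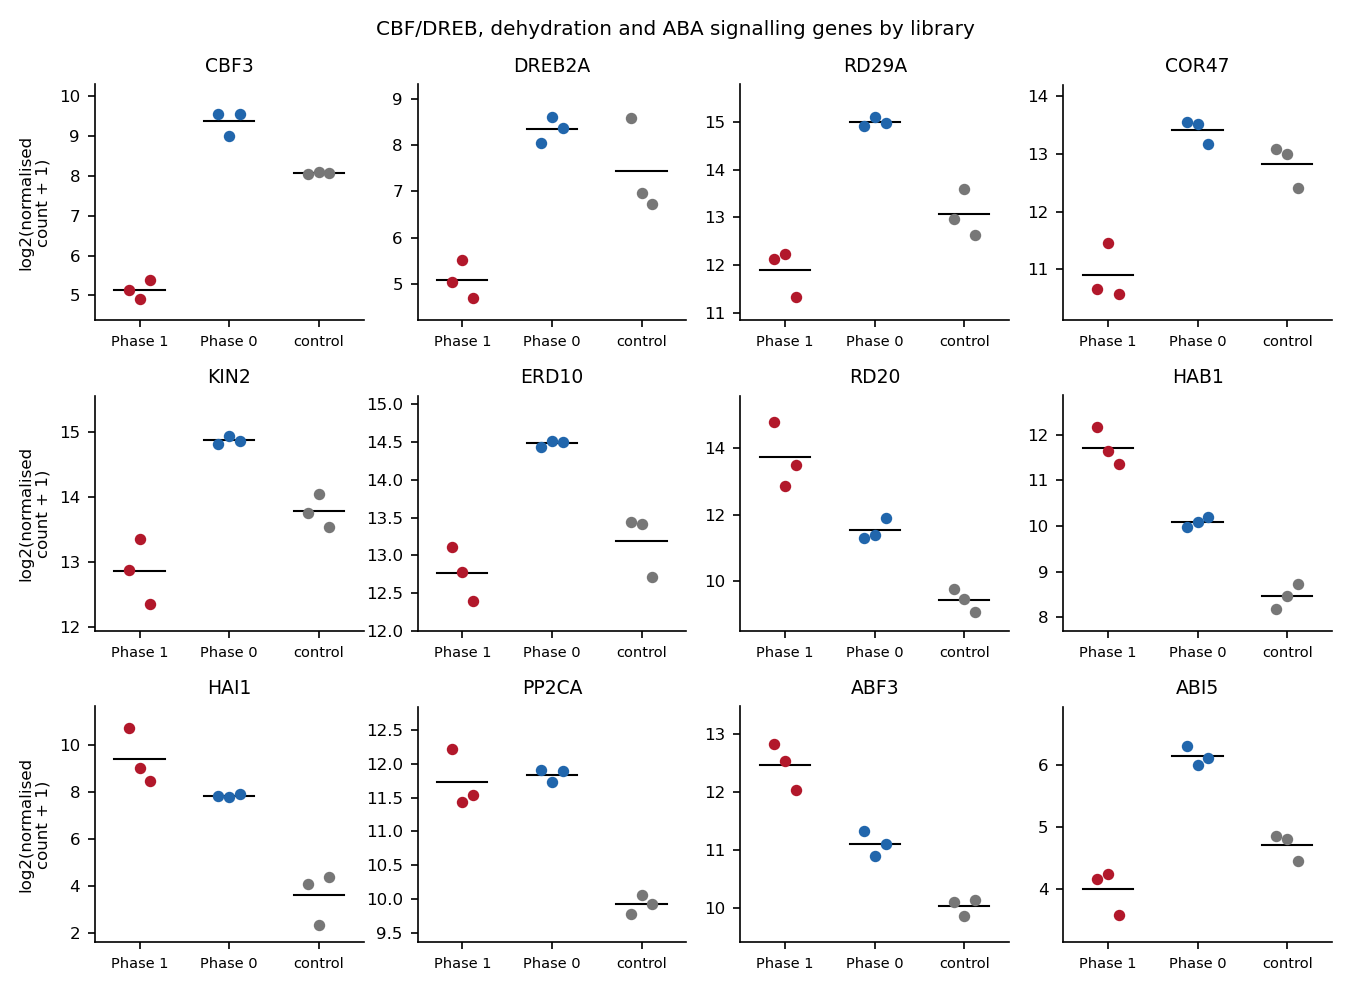
Each panel is 1 gene of the CBF and DREB families, dehydration markers or ABA signalling, with log2(normalised count + 1) on its own y axis and points for the 3 Phase 1 (red), 3 Phase 0 (blue) and 3 control (grey) libraries, with a line at the group mean. CBF3, DREB2A, RD29A, COR47, KIN2, ERD10 and ABI5 have their lowest mean in Phase 1, whereas RD20, HAB1 and ABF3 are highest in Phase 1, lower in Phase 0 and lowest in control.

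Transcripts of flavonoid synthesis were higher in Phase 1 at every step tested. These enzymes turn phenylalanine-derived precursors into flavonols, which screen ultraviolet light, and into anthocyanins, the red and purple pigments of stressed leaves. All 15 tested enzymes rose, with a median difference of 2.73, and with any 1 library left out 14 or 15 did, with a median that was lowest, at 2.42, without Phase 1 replicate 1. A further gene, F3H, was below the level needed for testing, with 14, 2 and 6 in Phase 1, 0, 0 and 2 in Phase 0 and 0 in each control library.

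At the entry, chalcone synthase (TT4) had 7466, 6500 and 5246 in Phase 1, 565, 915 and 978 in Phase 0 and 403, 773 and 1200 in control (difference between the phases 2.99, SE 0.35, adjusted p = 0.000168). Its 3 Phase 1 libraries lay close together and far above the other 6. FLS1, flavonol synthase, had 1182, 1181 and 891 in Phase 1 and 279, 323 and 503 in Phase 0 (difference 1.59). The late anthocyanin steps had the largest differences and the widest Phase 1 spread. DFR, dihydroflavonol reductase, had 1124, 293 and 258 in Phase 1 and 9, 10 and 30 in Phase 0 (difference 4.87, SE 0.64), and LDOX, the next enzyme, had 886, 280 and 185 in Phase 1 and 2, 12 and 23 in Phase 0 (difference 5.20, SE 0.75). UF3GT, a glycosyltransferase of anthocyanins, had 434, 119 and 127 in Phase 1 and 1, 5 and 20 in Phase 0, and the acyltransferase AT5MAT had 280, 79 and 70 in Phase 1 and 0, 6 and 8 in Phase 0. Phase 1 lay above Phase 0 without overlap in all 15 enzymes, as it did in 24.9% of all tested genes. In 14 of the 15, Phase 1 replicate 1 was the highest Phase 1 library.

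**Figure D4:**
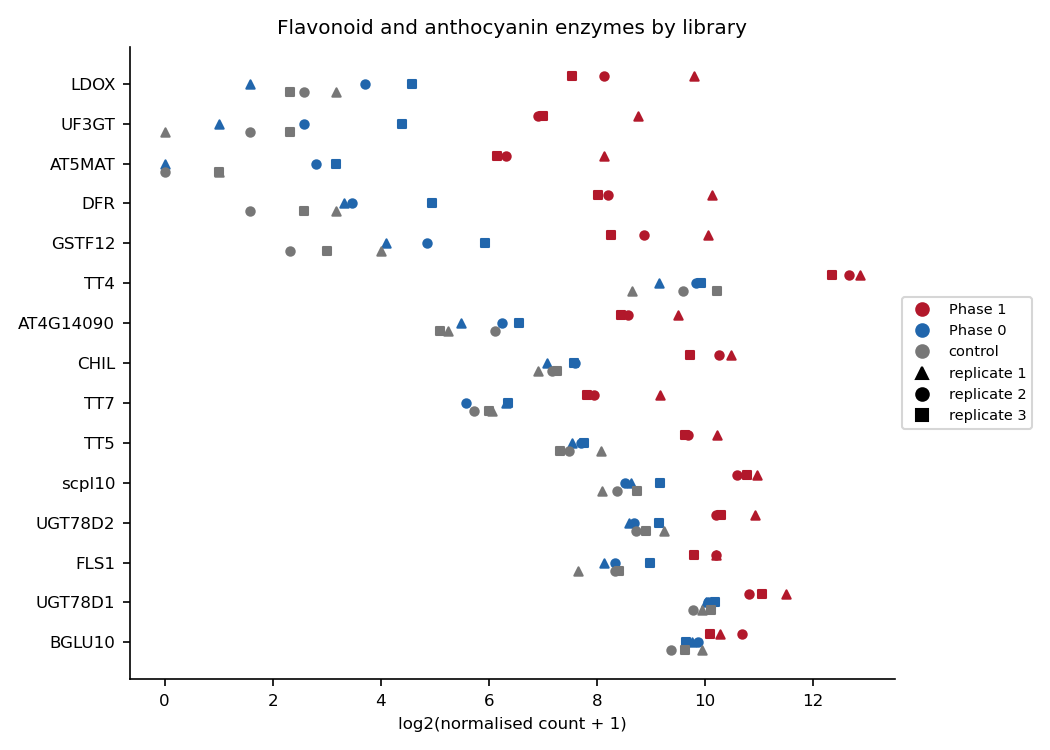
Each row is 1 of the 15 tested flavonoid and anthocyanin enzymes, with log2(normalised count + 1) on the x axis, colours for Phase 1 (red), Phase 0 (blue) and control (grey), and symbols for replicates 1 to 3. The Phase 1 points lie to the right of all Phase 0 points in every row, and the gap is widest for the late steps LDOX, UF3GT, AT5MAT and DFR, where Phase 1 replicate 1 (triangle) is the farthest right.

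Regulators of the pathway had 6 of 13 tested members higher, 2 lower and 5 not past the threshold, with a median of 1.14. PAP1, a MYB activator of anthocyanin genes, had 3141, 897 and 716 in Phase 1, 176, 254 and 341 in Phase 0 and 63, 82 and 59 in control (difference between the phases 2.34, SE 0.47). Its bHLH partner TT8 had 179, 80 and 67 in Phase 1, against 4, 2 and 4 in Phase 0. GL3, another, had 82, 43 and 21 in Phase 1, against 1, 2 and 7 in Phase 0. MYB11, a flavonol activator, had 53, 76 and 30 in Phase 1 and 7, 5 and 7 in Phase 0. MYBL2, a repressor of the pathway, had 529, 376 and 700 in Phase 1 and 1399, 1201 and 872 in Phase 0 (difference -1.13). None of these 5 overlapped between the phases, which was a condition for naming TT8. The 2 falls became 1 without Phase 0 replicate 2. The G-box stood in 6 of the 15 enzyme promoters, against 8.96% of all promoters. The promoter of UF3GT (chr5:21938347-21938646 of TAIR10.1, minus strand) is shown, as this enzyme had the largest difference among those with a G-box. It holds the G-box at 2 places, in capitals, beginning at -171 and -128.
UF3GT: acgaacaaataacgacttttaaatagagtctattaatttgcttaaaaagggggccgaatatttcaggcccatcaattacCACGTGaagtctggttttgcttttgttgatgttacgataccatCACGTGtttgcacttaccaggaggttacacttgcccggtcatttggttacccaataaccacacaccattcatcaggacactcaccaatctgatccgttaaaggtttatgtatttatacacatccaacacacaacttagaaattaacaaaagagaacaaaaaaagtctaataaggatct

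Photoprotective genes were among the large rises. ELIP1, the partner of ELIP2, had 7474, 6035 and 4020 in Phase 1 and 103, 171 and 237 in Phase 0 (difference 5.13, SE 0.32, adjusted p = 3.43e-06), and OHP, a small relative, had 3607, 3298 and 3688 in Phase 1 and 2483, 2217 and 2447 in Phase 0, a rise of 0.57 that was lost without Phase 0 replicate 2. The other 3 of the 6 members did not pass. Chlorophyll synthesis had 4 of 14 genes higher, 6 lower and 4 not past the threshold, with a median of -0.23 that was -0.15 without Phase 1 replicate 2. PORB, which reduces protochlorophyllide in the light, had 1430, 1950 and 2856 in Phase 1 and 37844, 35723 and 29461 in Phase 0 (difference -4.10, SE 0.22, adjusted p = 1.31e-06). GUN4, an activator of magnesium chelatase, had 304, 369 and 233 in Phase 1 and 107, 81 and 82 in Phase 0 (difference 1.72), and HEMA1, at the head of the pathway, had 21745, 15494 and 28383 in Phase 1 and 9891, 8728 and 10140 in Phase 0 (difference 1.15). CHLI2, a chelatase subunit, had 761, 671 and 1039 in Phase 1 and 1720, 2084 and 1980 in Phase 0 (difference -1.25).

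Of 51 nuclear photosystem genes 4 were higher, 6 lower and 41 not past the threshold, so that 19.6% were called, against 28.1% of all genes. Their median was -0.20, or -0.06 without Phase 1 replicate 2. Of 20 Calvin cycle genes 2 were higher, 2 lower and 16 not past the threshold, so that 20% were called. Their median of 0.04 ran from -0.04 to 0.11 with 1 library left out. It was below 0 without Phase 1 replicate 1 or 3 or Phase 0 replicate 1. LHB1B1, a light-harvesting protein of photosystem II, had 21036, 22685 and 28965 in Phase 1 and 108274, 83223 and 65637 in Phase 0 (difference -1.81), though it has near-identical family members. FNR2, a ferredoxin reductase, had 20171, 18275 and 19542 in Phase 1 and 58569, 54426 and 58122 in Phase 0 (difference -1.56). FD1, a leaf ferredoxin, had 13051, 11360 and 14754 in Phase 1 and 5244, 5497 and 7463 in Phase 0, a rise of 1.12, and the aldolase FBA1 rose by 0.87. RCA, Rubisco activase, had 274221, 225607 and 283947 in Phase 1 and 194717, 217812 and 231437 in Phase 0, with overlap and a difference of 0.28 (95% interval -0.09 to 0.65). The 4 photosystem rises became 2 when replicate 1 or 3 of Phase 1, any Phase 0 library or control replicate 3 was left out. The 2 Calvin cycle rises became 1 without Phase 0 replicate 1 or 2 or Phase 1 replicate 1 or 3, and the 2 falls became 1 without Phase 0 replicate 3 or Phase 1 replicate 1. In chlorophyll breakdown and senescence 3 of 15 were higher, 3 lower and 9 not past the threshold. Beside SAG29, NYC1, a chlorophyll b reductase, had 2688, 1722 and 2672 in Phase 1 and 6110, 5449 and 7426 in Phase 0 (difference -1.44), and the senescence factor ORE1 (NAC6) had 7, 5 and 13 in Phase 1 and 102, 133 and 28 in Phase 0.

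Starch genes were mostly lower, with 11 of 20 lower, 5 higher and 4 not past the threshold, and a median of -0.57. Among those that fell were enzymes of breakdown at night. PWD, a kinase that opens the granule, had 1453, 1364 and 1185 in Phase 1, 6736, 7055 and 7161 in Phase 0 and 4025, 5167 and 4675 in control (difference between the phases -2.39, SE 0.12, adjusted p = 1.03e-06). DPE1, which rearranges short glucans, had 571, 637 and 631 in Phase 1 and 3285, 2657 and 2904 in Phase 0 (difference -2.26), and PHS2, a cytosolic phosphorylase, had 5365, 8269 and 5380 in Phase 1 and 24149, 25984 and 26387 in Phase 0 (difference -2.04). GBSS1, which makes amylose and is under the clock, had 35863, 20287 and 17171 in Phase 1, 872, 1138 and 1320 in Phase 0 and 1253, 746 and 1003 in control (difference 4.41, SE 0.28, adjusted p = 3.72e-06). None of these 4 overlapped between the phases.

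Genes induced by lack of sugar were lower, with 10 of 18 lower, 1 higher and 7 not past the threshold, and a median of -1.29. DRM2 (AT2G33830, without a symbol in the annotation) had 13, 13 and 31 in Phase 1 and 2099, 2472 and 911 in Phase 0 (difference -6.51, SE 0.39, adjusted p = 2.79e-06), and DYL1, a dormancy-associated gene, had 33, 18 and 70 in Phase 1 and 487, 342 and 227 in Phase 0 (difference -3.23). SEN1, a dark-inducible gene, had 25, 4 and 29 in Phase 1 and 408, 133 and 68 in Phase 0, with a wide Phase 0 spread and no overlap. TPS11, of the trehalose phosphate synthase family, had 267, 169 and 607 in Phase 1 and 2036, 1700 and 1238 in Phase 0. DIN9, the 1 member that rose, had 613, 399 and 274 in Phase 1 and 75, 80 and 112 in Phase 0. Of 14 sugar transporters 2 were higher, 5 lower and 7 not past the threshold. MSS1, also called STP13, a hexose importer, had 373, 405 and 221 in Phase 1 and 2382, 2916 and 2319 in Phase 0 (difference -2.97), and SWEET12, a sucrose exporter of the phloem, had 60, 40 and 31 in Phase 1 and 220, 220 and 225 in Phase 0 (difference -2.37). The count of 5 lower fell to 2 without Phase 0 replicate 2 and to 3 without Phase 0 replicate 3 or Phase 1 replicate 1 or 2.

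Compatible solutes protect cell structure when water is short. Of 16 tested genes for them 5 were higher, 2 lower and 9 not past the threshold, with a median of 0.27 that was -0.02 without Phase 1 replicate 1. MIPS2, which makes the inositol backbone, had 9992, 4721 and 5295 in Phase 1, 523, 450 and 575 in Phase 0 and 476, 497 and 467 in control (difference between the phases 3.61, SE 0.24, adjusted p = 4.69e-06). GolS1, galactinol synthase, had 14657, 2925 and 2999 in Phase 1 and 586, 498 and 615 in Phase 0 (difference 3.16), and the proline transporter gene ProT3 had 551, 305 and 193 in Phase 1 and 58, 48 and 69 in Phase 0 (difference 2.45). All 3 were separate between the phases, with Phase 1 replicate 1 the highest. P5CS1, which makes proline, had 26443, 11580 and 17308 in Phase 1 and 15210, 15057 and 14922 in Phase 0, which overlapped, with a difference of 0.21 (95% interval -0.34 to 0.76). GolS3, a cold-induced galactinol synthase, had 70, 901 and 193 in Phase 1 and 1265, 936 and 797 in Phase 0, and its call was lost without any 1 of Phase 0 replicates 1 to 3, Phase 1 replicate 1 or 3 and control replicate 2 or 3. The 2 falls of the group became 1 or 0 in each of those cases and without Phase 1 replicate 2.

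In the 32 genes of sodium, potassium, anion and proton transport 9 were higher, 4 lower and 19 not past the threshold, with a median of 0.11. SKOR, an outward potassium channel, had 51, 61 and 58 in Phase 1 and 6, 6 and 24 in Phase 0 (difference 2.43). KUP8 (AT5G14880), annotated as a potassium transporter family protein, had 2504, 2170 and 2208 in Phase 1 and 723, 862 and 738 in Phase 0 (difference 1.57, SE 0.11). SLAH3, a nitrate and chloride channel, had 796, 833 and 618 in Phase 1 and 245, 224 and 318 in Phase 0 (difference 1.51). AKT2 (KT2/3 in the annotation), a phloem potassium channel, had 3637, 2838 and 3622 in Phase 1 and 1746, 1441 and 1649 in Phase 0 (difference 1.06). These 4 were separate between the phases. The vacuolar exchangers NHX1 and NHX2, which move sodium or potassium into the vacuole, rose by 0.51 and 0.72. The NHX1 call was lost under at least 1 of the 22 alternative settings. SOS1, the plasma membrane sodium exporter, had 636, 542 and 619 in Phase 1 and 513, 605 and 524 in Phase 0 (difference 0.13, 95% interval -0.24 to 0.50), and HKT1, which retrieves sodium from the xylem, had 12, 16 and 24 in Phase 1 and 9, 7 and 12 in Phase 0. The count of 4 lower fell to 2 without Phase 1 replicate 2 or any 1 of the Phase 0 libraries.

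Aquaporins, the water channels of plasma membrane and vacuole, had 8 of 18 tested members higher, 0 lower and 10 not past the threshold, with a median of 0.72. Against control the median was 0.43 in Phase 1 and -0.40 in Phase 0. PIP2;7 (PIP3 in the annotation) had 2975, 2566 and 3663 in Phase 1, 1050, 873 and 1013 in Phase 0 and 1983, 2349 and 2189 in control (difference between the phases 1.64, SE 0.15, adjusted p = 2.98e-05). PIP1;1 (PIP1A) had 7934, 5352 and 7227 in Phase 1 and 2774, 2362 and 2285 in Phase 0 (difference 1.45), and PIP1;4 had 6670, 5425 and 5832 in Phase 1 and 2514, 2301 and 2673 in Phase 0 (difference 1.26). No Phase 1 library of these 3 genes overlapped Phase 0. PIP2;3 (RD28) rose by 1.55, but it may share reads with a near-identical copy. In wall expansion 5 of 28 were higher, 2 lower and 21 not past the threshold. That is 25% called, against 28.1% of all genes. The median was 0.11, with 0.18 without Phase 1 replicate 1, 0.07 without Phase 0 replicate 3 and -0.02 without Phase 1 replicate 3. Against control it was -0.738 in Phase 1 and -1.05 in Phase 0, values that share the control libraries. EXO, a growth-related extracellular protein, had 144, 142 and 234 in Phase 1, 37, 32 and 38 in Phase 0 and 239, 281 and 139 in control (difference between the phases 2.21). XTH6, a xyloglucan transferase, had 488, 707 and 800 in Phase 1, 156, 180 and 134 in Phase 0 and 588, 1335 and 867 in control (difference 2.06). The expansin EXPA16 had 92, 12 and 42 in Phase 1, 231, 246 and 522 in Phase 0 and 46, 78 and 39 in control (difference -3.06). In these 3 genes Phase 1 overlapped control and Phase 0 did not. The 2 falls of the group became 5 without Phase 1 replicate 3 and 1 without any 1 of the other Phase 1 and Phase 0 libraries.

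Cuticular wax genes had 4 of 12 higher, 1 lower and 7 not past the threshold. The median was 0.01 and ran from -0.08 to 0.17 with 1 library left out, below 0 without Phase 1 replicate 1 or Phase 0 replicate 1. CER1, which makes the alkanes of the leaf surface, had 7768, 6133 and 7713 in Phase 1, 1020, 1276 and 1341 in Phase 0 and 362, 1134 and 446 in control (difference between the phases 2.57, SE 0.34). WSD1, a wax ester synthase, had 1554, 805 and 868 in Phase 1 and 96, 185 and 198 in Phase 0 (difference 2.75). DEWAX (AT5G61590), an ethylene-response type factor, had 55, 52 and 114 in Phase 1 and 610, 563 and 310 in Phase 0 (difference -2.76). The 3 did not overlap between the phases.

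Of 18 salicylate and defence genes 7 fell, 1 rose and 10 did not pass. Their median was -0.97, with -0.54 without Phase 0 replicate 2 and -0.57 without Phase 1 replicate 3. PR1, the standard marker of salicylate defence, had 246, 329 and 60 in Phase 1, 2486, 14107 and 4773 in Phase 0 and 11671, 804 and 816 in control (difference between the phases -5.01, SE 1.03, adjusted p = 0.00503). PR5 had 1744, 1515 and 1180 in Phase 1 and 8172, 21915 and 12123 in Phase 0 (difference -3.15), and PAD4, a lipase-like regulator, had 692, 872 and 618 in Phase 1 and 1712, 2524 and 2159 in Phase 0 (difference -1.55). Phase 1 lay below all Phase 0 libraries in these 3 genes, which was a condition for naming PR1. PR1 and PR5 were highest in Phase 0 replicate 2 and, among the controls, in replicate 1. The 1 rise was lost without Phase 0 replicate 1 or 3 or Phase 1 replicate 1 or 2, and there were 2 without Phase 1 replicate 3.

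Of 25 jasmonate genes 4 rose, 1 fell and 20 did not pass, with a median of 0.32. That is 20% called, under the 28.1% of all genes. VSP2, a storage protein and jasmonate marker, had 52281, 8292 and 10021 in Phase 1, 781, 1482 and 1754 in Phase 0 and 155, 2179 and 206 in control (difference between the phases 3.69, SE 0.95, adjusted p = 0.0154). VSP2 was lost without Phase 0 replicate 1 or Phase 1 replicate 1. VSP1, a close copy with which it may share reads, had 11528, 825 and 1101 in Phase 1 and 105, 223 and 299 in Phase 0. TIFY7 (JAZ9), a repressor of the pathway, had 23421, 7473 and 5903 in Phase 1 and 2732, 3759 and 4551 in Phase 0, and AOC2, of jasmonate synthesis, had 9361, 3088 and 3287 in Phase 1 and 10281, 14775 and 11986 in Phase 0. Phase 1 replicate 1 was the highest Phase 1 library in 24 of the 25 genes, and without it the median was -0.23. The median was 0.52 without Phase 1 replicate 2, 0.77 without Phase 1 replicate 3 and 0.012 without Phase 0 replicate 1. The 4 rises became 0 without Phase 0 replicate 1 and 1 without Phase 0 replicate 2, and AOC2 was lost without Phase 0 replicate 2 or Phase 1 replicate 2 or 3. LOX2, an early enzyme of the pathway, had 103676, 28236 and 27087 in Phase 1 and 28210, 45561 and 31814 in Phase 0, which overlapped.

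Growth hormones showed smaller groups of calls. Type A response regulators, early targets of cytokinin, had 4 of 8 higher, 1 lower and 3 not past the threshold. ARR15 had 316, 474 and 711 in Phase 1 and 79, 75 and 83 in Phase 0 (difference 2.57), whereas ARR5 (RR5) had 153, 107 and 320 in Phase 1 and 437, 421 and 500 in Phase 0 (difference -1.37). Auxin-response genes had 1 of 13 higher, 4 lower and 8 not past the threshold. GH3.3, which conjugates auxin, had 27, 19 and 15 in Phase 1 and 131, 153 and 67 in Phase 0 (difference -2.42), and IAA17 (AXR3), a repressor of auxin response, had 1651, 1428 and 1365 in Phase 1 and 427, 441 and 529 in Phase 0 (difference 1.67). RGL2, a DELLA repressor of gibberellin signalling, had 788, 703 and 710 in Phase 1 and 200, 179 and 246 in Phase 0 (difference 1.82), in a gibberellin group with 2 of 10 higher, 2 lower and 6 not past the threshold. None of these 5 genes overlapped between the phases. The 4 auxin falls became 2 without Phase 0 replicate 2 or Phase 1 replicate 2, and the auxin rise became 2 when Phase 1 replicate 2 or control replicate 1 or 2 was left out. The 2 gibberellin falls became 0 without Phase 0 replicate 1 or 2 or Phase 1 replicate 1 or 3, and 1 without Phase 0 replicate 3. Ethylene genes had 0 of 14 higher and 4 lower. The share called was 28.6%, near the 28.1% of all genes, with every call lower. The count of 4 became 1 without Phase 1 replicate 1 or Phase 1 replicate 2 and 2 without Phase 0 replicate 1 or 2. The receptor ETR2 had 16, 26 and 24 in Phase 1 and 83, 41 and 45 in Phase 0, a call lost without Phase 1 replicate 1 or Phase 0 replicate 1.

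Ribosome biogenesis had 0 of 28 genes higher, 8 lower and 20 not past the threshold. The share called was 28.6%, near the 28.1% of all genes, with every call lower. The median was -0.19, with medians against control of -0.51 in Phase 1 and -0.36 in Phase 0. FIB2, a fibrillarin that methylates ribosomal RNA, had 281, 223 and 201 in Phase 1, 374, 498 and 479 in Phase 0 and 855, 639 and 895 in control (difference between the phases -0.94, SE 0.18). NUC-L1, a nucleolin that opens ribosomal DNA, had 3873, 3992 and 3601 in Phase 1, 5642, 6541 and 6707 in Phase 0 and 8581, 6805 and 7903 in control (difference -0.72, SE 0.12). In both, the groups stood in 3 separate steps, though FIB2 lost its call under at least 1 of the 22 alternative settings. The count of 8 fell to 3 without Phase 0 replicate 2 or Phase 0 replicate 3, to 4 without Phase 1 replicate 1 or Phase 1 replicate 3, and to 5 without Phase 1 replicate 2 or control replicate 3. It was 1, with a median of -0.07, without replicate 3 of both phases, and the median was -0.12 without Phase 1 replicate 3. The telo-box AAACCCTAA, an element of genes for the translation machinery, stood in 11 of the 28 promoters, against 3.3% of all promoters. It stood in 1.54% of genes lower by at least 1 and in 1.63% of those higher by at least 1. Of the 612 tested genes that held it, 15.5% were called lower and 6.0% higher, against 14.4% and 13.7% of all tested genes. NUC-L1 (chr1:18097831-18098130 of TAIR10.1, plus strand) had the largest difference among members with the telo-box. It is shown with the telo-box in capitals, beginning at position 2. Its promoter also holds the evening element, left in lower case, as 2 of the 28 promoters did.
NUC-L1: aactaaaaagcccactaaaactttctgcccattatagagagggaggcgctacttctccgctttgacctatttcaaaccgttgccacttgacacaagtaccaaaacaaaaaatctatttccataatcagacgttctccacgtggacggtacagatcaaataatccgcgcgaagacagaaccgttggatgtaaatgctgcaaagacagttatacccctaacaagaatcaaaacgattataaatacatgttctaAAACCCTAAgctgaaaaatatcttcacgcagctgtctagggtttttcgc

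Nutrient genes had their largest share of calls in the response to phosphate starvation, with 8 of 12 lower, 1 higher and 3 not past the threshold, and a median of -0.67. SPX1, a phosphate sensor protein induced by starvation, had 385, 394 and 414 in Phase 1 and 1574, 1367 and 1025 in Phase 0 (difference -1.71, SE 0.20), and PHT1;4, a phosphate importer, had 8, 16 and 8 in Phase 1 and 37, 60 and 44 in Phase 0. The count of 8 became 5 without Phase 0 replicate 1 or Phase 0 replicate 2. Of 13 sulphur genes 5 rose, 0 fell and 8 did not pass, with a median of 0.53. SDI1 (ATSDI1 in the annotation), induced by lack of sulphur, had 929, 407 and 436 in Phase 1 and 127, 123 and 104 in Phase 0 (difference 2.21), and APR2, of sulphate reduction, had 2057, 1497 and 2714 in Phase 1 and 646, 1059 and 840 in Phase 0 (difference 1.29). Without control replicate 1 the counts were 9 higher and 1 lower. Of 13 nitrogen genes 4 rose, 2 fell and 7 did not pass. NRT1.1, a nitrate transporter and sensor, had 3091, 2396 and 2703 in Phase 1 and 932, 1062 and 1260 in Phase 0 (difference 1.33), and the cytosolic glutamine synthetase GLN1;1 (GSR 1) had 2037, 3188 and 1671 in Phase 1 and 7403, 11970 and 10980 in Phase 0 (difference -2.16). SPX1, SDI1, APR2, NRT1.1 and GLN1;1 were each separate between the phases. The 2 nitrogen falls became 1 when replicate 2 or 3 of Phase 1, 1 or 2 of Phase 0 or 2 or 3 of the controls was left out. Of 13 iron genes 1 rose, so that 7.69% were called, against 28.1% of all genes. It was the ferritin FER1, which stores iron, with 13620, 3155 and 38604 in Phase 1 and 2206, 1076 and 1861 in Phase 0. That call was lost without Phase 0 replicate 2.

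Heat-shock genes had 5 of 16 higher, 1 lower and 10 not past the threshold, with a median of 0.45. HSP70 (AT3G12580), a cytosolic chaperone, had 1540, 1700 and 1557 in Phase 1 and 193, 394 and 468 in Phase 0 (difference 2.28), and the small heat-shock protein HSP17.6II had 49, 58 and 53 in Phase 1 and 5, 11 and 9 in Phase 0 (difference 2.60). HSFA3, a heat-shock factor downstream of DREB2A, had 18, 55 and 40 in Phase 1 and 134, 116 and 204 in Phase 0 (difference -2.07). These 3 were separate between the phases, and the count of 5 fell to 3 without Phase 0 replicate 1 or Phase 1 replicate 2 or 3. FSD3, an iron superoxide dismutase of the chloroplast, had 641, 648 and 695 in Phase 1 and 1128, 983 and 1260 in Phase 0 (difference -0.76). Its group of superoxide dismutases, ascorbate peroxidases and CAT1 had 0 of 12 higher, 3 lower and 9 not past the threshold. That is 25% called, against 28.1% of all genes, and 1 was higher without Phase 1 replicate 2. CAT2, which rose, and CAT3, which fell, were counted among the clock outputs and not in this group. Of 23 glucosinolate genes 2 rose, 1 fell and 20 did not pass, so that 13% were called, against 28.1% of all genes. MYB51, an activator of indole glucosinolates, had 95, 129 and 89 in Phase 1 and 342, 565 and 349 in Phase 0 (difference -1.97). The 2 glucosinolate rises became 6 without control replicate 1 and 1 without Phase 0 replicate 2 or 3 or any 1 of the Phase 1 libraries, and the fall became 2 without Phase 1 replicate 1.

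**Figure D5:**
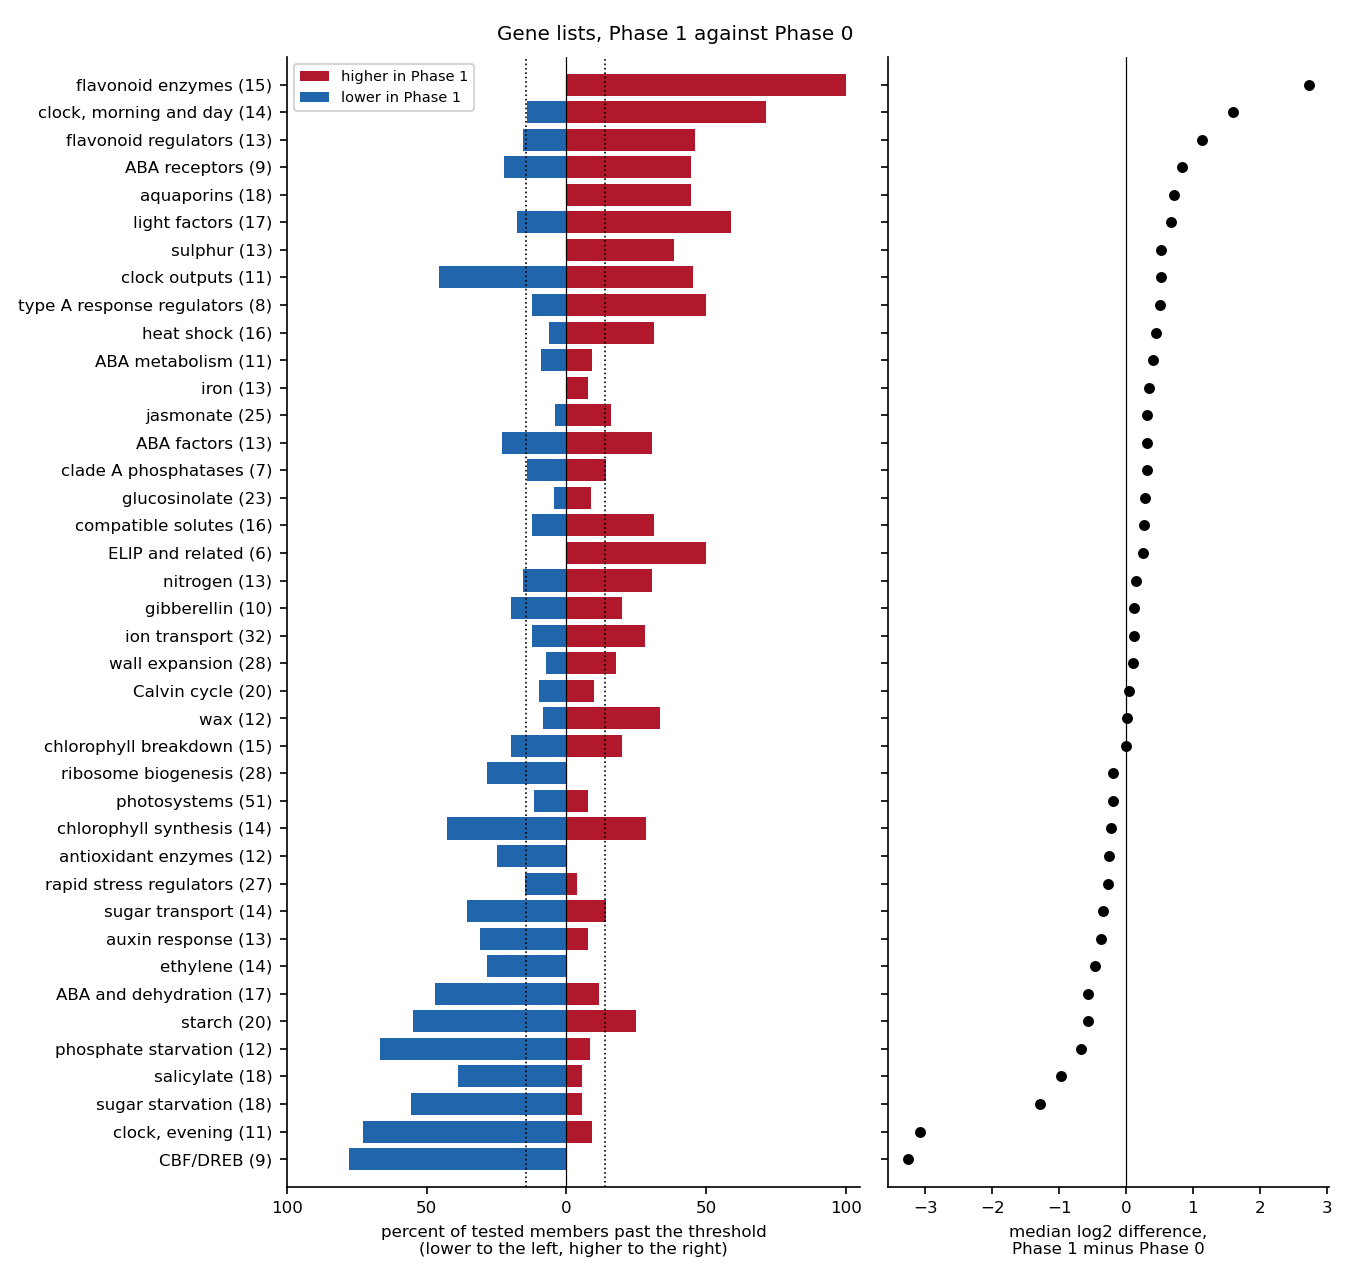
For each of 40 gene lists, with the number of tested members in brackets, the left panel gives the percent of members higher (red, to the right) and lower (blue, to the left) in Phase 1, with dotted lines at 13.7% and 14.4%, the shares of all tested genes. The right panel gives the median log2 difference, Phase 1 minus Phase 0, which runs from -3.26 in the CBF and DREB list to 2.73 in the flavonoid enzymes.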

How the data were processed

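Stranded libraries of polyadenylated mRNA were sequenced, per the labels' protocols, and the build TAIR10 and the tools featureCounts 1.4.5-p1, STAR 2.4.0a, DESeq2 1.62, Subread and FastQC appear in the submitters' processing notes without their roles. How strand was counted is not given in the sources used here. The deposited values are whole-number scores: counts per gene that the authors normalised and rounded, so no count test was run, and the reads behind a value were estimated only from the spacing of low values. They were taken as log2(value + 1) and fitted with limma 3.58.1 (trend, R 4.3.3) over all 9 libraries in 3 groups, for the 18650 genes with a mean of at least 10. The contrast was Phase 1 minus Phase 0, with Benjamini-Hochberg adjustment at 0.05 over all genes tested and 95% intervals. The steps were tested on simulated data. Members and the 40 gene lists and 6 marker lists were chosen with earlier results of these data known.

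Named genes are the 15 largest rises and 15 largest falls with a symbol, no overlap and a higher-group mean of 100 or more, the 6 most abundant in each direction with a difference of at least 1, up to 4 called members per list, and members that did not pass, shown with their values. GI, TOC1, ELF3, ZTL, PRR7, EPR1, HY5, LZF1, DREB2A, COR47, ERD10, COR15B, KIN2, RD20, TT4, FLS1, MYBL2, DIN9, NHX1 and NHX2 were added after their values were seen. Of 21176 loci, 21054 matched a RefSeq entry and 8841 had a symbol. Promoters came from RefSeq's TAIR10.1 assembly, while the deposited table holds no coordinates. Tables and plots were made in Python 3.11.15 (matplotlib 3.10.9, pandas 2.3.3, numpy 2.4.6). The alternatives covered pseudocount, filter, scaling, trend, libraries in the fit, replicate block, threshold, array weights, organelle genes and each library left out. Leaving out replicate 3 of both phases, whose spacing could not be read, was added after seeing the data.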

Additional observations from a re-analysis of the deposited data

How the results depend on the processing

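Between the phases, the count of 5249 genes was 2880 (1422 higher in Phase 1, 1458 lower) at a threshold of 0.01, 8057 (3923 and 4134) with array weights, and 2820 (1413 and 1407) without Phase 1 replicate 3 and Phase 0 replicate 3. With 1 library left out it ran from 3378 to 6703, with 1679 to 3278 higher and 1699 to 3425 lower, and was lowest without Phase 0 replicate 2. Same-numbered Phase 1 and Phase 0 libraries had correlations of their deviations of -0.304, -0.0625 and -0.083. Differently numbered ones had -0.159 to 0.229. Deviations from means of 3 libraries depend on each other, so these values cannot settle whether replicate numbers pair the samples. A fit with the replicate block called 4835 genes, 4677 of them shared. Counts of genes with a difference of at least 1 stayed within 1.5 times under all 22 settings. Of 206 named genes 194 were called, and 47 of these lost the call under at least 1 setting, while 3 others (HAI1, RAB18 and COR15A) gained one. Sign changes occurred in 6 genes that had not passed. PCL1 was at -0.021 with quantile normalisation and -0.091 with array weights, and with libraries left out it ran from -0.24 to 0.32 and was below 0 without Phase 0 replicate 2 (-0.13) or Phase 1 replicate 1. Leaving out libraries gave LOX2 -0.32 to 0.65 and P5CS1 -0.089 to 0.51, both lowest without Phase 1 replicate 1. It gave KIN1 -0.73 to 0.78, lowest without Phase 1 replicate 2, and RAP2.4 -0.27 to 0.0053, highest without Phase 1 replicate 3. PP2CA ran from -0.35 to 0.041, highest without Phase 1 replicate 2, and was at 0.01 without replicate 3 of both phases. The cause of these shifts was not tested. Values under about 3 reads, or 2.75 to 3.97 normalised counts, limit what can be said of the weakest genes.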
